A study of Mus musculus with 40 samples.

Results

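Ces1d, Slc25a48, Slc7a8, Phlda1 and Tmem52b are the 5 genes, of 23079 gene identifiers counted, that had the smallest p for human chorionic gonadotropin (hCG) against phosphate-buffered saline (PBS) in mouse myometrium. They were chosen by the measured myometrium counts of these same libraries, so that difference, its p-values included, only describes the choice and supports nothing here. The study measured RNA by sequencing in myometrium, the muscle wall of the uterus, and in cervix, to learn how hCG changes gene expression near the end of pregnancy. All mice were pregnant C57BL/6, an inbred strain, collected at 18.5 days post coitum, and carried no transgene per the labels. The 4 groups of 10 libraries are myometrium after hCG, myometrium after PBS, cervix after hCG and cervix after PBS, each agent given into the peritoneum. Neither the dose nor the interval to collection could be read from the labels. The labels number the libraries without saying that a number is an animal, so p-values measure the spread between these libraries, which may be technical.

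hCG is a placental glycoprotein hormone that binds the luteinizing hormone receptor, encoded by Lhcgr, which signals mainly through Gs and cyclic AMP. Ces1d encodes a carboxylesterase of the endoplasmic reticulum that hydrolyses stored triacylglycerol and is abundant in liver and fat. Slc25a48 encodes a mitochondrial inner membrane carrier linked to choline uptake, and Slc7a8 encodes an exchanger of neutral amino acids that works at the plasma membrane with the heavy chain Slc3a2. Phlda1 encodes a pleckstrin homology-like protein whose transcript follows growth factor signalling. Tmem52b encodes a membrane protein whose function is little described.

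Libraries held between 5449239 and 25028360 counts. Levels are in CPM, counts relative to the total of the library, after TMM scaling, a correction for library composition. The lowest library counts in myometrium were 25 for Ces1d, 12 for Slc25a48, 150 for Slc7a8 and 8 for Phlda1, and Tmem52b had 1132 counts over the 10 hCG myometrium libraries but only 23 over the 10 hCG cervix libraries. The smooth muscle markers Acta2, Des and Myh11 had median levels of 4682, 1761 and 5328 CPM in hCG myometrium. Lhcgr itself was near 0: its median was 0 CPM in hCG myometrium and 0.0864 CPM in PBS myometrium, with 1 hCG library reaching 69.1 CPM. Some myometrium libraries carried RNA of other tissues: 8 had over 1000 CPM of the yolk sac gene Afp (5 of them hCG), and 4, all hCG (1, 5, 8 and 10), had over 100 CPM of the oviduct gene Ovgp1, against at most 15.8 CPM in PBS. The mean log2 CPM of 9 markers of ovarian steroidogenic cells, Lhcgr among them, was 6.69 in hCG myometrium library 5. It was at most 2.89 in the other myometrium libraries. In 3 myometrium libraries, and in PBS cervix libraries 5 to 8, Lars2, a mitochondrial leucyl-tRNA synthetase, took over 1% of counts. Fewer cells of a type and less RNA per cell cannot be told apart in these bulk samples.

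All 5 genes are protein coding. On the mouse build GRCm38 (RefSeq GRCm38.p6), Ces1d (identifier 104158) lies at chr8:93166072-93197804, within a row of related carboxylesterase genes. Slc25a48 (328258) lies at chr13:56437960-56472367, Slc7a8 (50934) at chr14:54722215-54781886, Phlda1 (21664) at chr10:111506286-111508649 and Tmem52b (330428) at chr6:129512549-129519227. In GENCODE vM21 the principal transcripts have 14, 8, 11, 2 and 5 exons in the same order. Reads of Ces1d could be mistaken for a relative at few places, since 1.28% of its 50-base transcript windows also occur in another gene, and for Slc25a48 and Slc7a8 the shares were 0.752% and 0.0991%. Tmem52b shared none. For Phlda1, 33.2% of windows were shared with an antisense noncoding gene model on the opposite strand, and the strand setting of the counting is not given, so reads of the antisense partner cannot be told apart from its own.

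Promoter sequences from RefSeq (GRCm38.p6) were held for Slc25a48, Slc7a8 and Tmem52b, and are shown because Slc25a48 and Slc7a8 stood lower and Tmem52b higher in hCG than in PBS myometrium. Each run holds the 250 bases before the transcript start that the promoter table uses, which for Slc25a48 and Tmem52b lies inside the gene span given above, so that these 2 windows overlap the span. Capitals mark the matches found to GGGCGG (a GC box), or its reverse complement CCGCCC, and to CCAAT. The windows are chr13:56438105-56438354 on the plus strand, chr14:54781887-54782136 on the minus strand and chr6:129512307-129512556 on the plus strand, each printed in the gene's own direction.
Slc25a48: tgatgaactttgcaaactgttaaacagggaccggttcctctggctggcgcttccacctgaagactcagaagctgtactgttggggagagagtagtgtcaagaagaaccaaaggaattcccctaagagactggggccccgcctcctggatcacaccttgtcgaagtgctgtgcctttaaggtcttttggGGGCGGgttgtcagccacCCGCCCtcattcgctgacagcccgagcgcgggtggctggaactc
Slc7a8: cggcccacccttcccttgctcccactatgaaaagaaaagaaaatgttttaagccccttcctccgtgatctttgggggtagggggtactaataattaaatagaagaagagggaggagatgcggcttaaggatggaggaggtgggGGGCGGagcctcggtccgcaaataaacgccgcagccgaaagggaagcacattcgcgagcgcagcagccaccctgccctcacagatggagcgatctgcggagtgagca
Tmem52b: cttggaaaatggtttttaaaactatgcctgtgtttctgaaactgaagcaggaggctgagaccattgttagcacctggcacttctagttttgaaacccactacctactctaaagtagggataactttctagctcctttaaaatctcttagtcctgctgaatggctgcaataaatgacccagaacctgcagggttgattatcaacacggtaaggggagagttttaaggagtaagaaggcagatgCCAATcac
The motifs searched on both strands were TGACGTCA and TGACG (the cyclic AMP response element and its core, the second contained in the first), AGAACA (part of a steroid receptor site), TATAAA (the TATA box), and the promoter motifs CCAAT and, for the GC box, GGGCGG. In Slc25a48 GGGCGG starts 62 and 44 bases before the start site, once on each strand, and in Slc7a8 it starts 107 bases before. In Tmem52b CCAAT starts 8 bases before. GGGCGG occurs in 32.7% and CCAAT in 33.8% of the 32851 promoter windows of the same length, and TGACG in 17.8%, TGACGTCA in 1.55%, AGAACA in 16.1% and TATAAA in 12.4%. None of these last 4 was found in the 3 windows shown, which says only that these letters are not in them.

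In edgeR's quasi-likelihood test, the smallest p-values in myometrium were 5.88e-07 for Slc25a48, 3.16e-06 for Ces1d, 1.68e-05 for Slc7a8, 2.00e-05 for Phlda1 and 2.13e-05 for Tmem52b. Just outside stood Basp1 at 3.15e-05, Wfdc16 at 3.56e-05 and Tpcn2 at 5.25e-05, whose log2 differences were 0.50, 1.06 and -0.55. A Benjamini-Hochberg adjusted p under 0.05 was reached by Slc25a48 and Ces1d, which are 2 of the 5 and 0.0138% of the 14517 genes tested. Nothing is read from that count, because the same contrast chose the genes. The choice itself depended on the tool and the libraries: Slc25a48 stayed within the 5 smallest p in 33 of 34 alternative settings, Ces1d in 30, and Slc7a8, Phlda1 and Tmem52b in 20 each. With the label number as a replicate block none of the 5 did, and by limma voom with quality weights Ces1d ranked 288. DESeq2 called 2.65% of all genes in myometrium, and 15.5% had an unadjusted edgeR p under 0.05.

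Ces1d, the lipid hydrolase, stood highest in hCG myometrium relative to PBS. Its level was 3.56, 16.3 and 20.3 CPM at the lowest, median and highest of the 10 hCG libraries and 2.02, 4.25 and 6.80 CPM in the 10 PBS libraries. 9 of 10 hCG libraries lay above every PBS library, and the exception was hCG library 2 at 3.56 CPM. The hCG libraries fell into 2 ranges above it, with libraries 10, 4 and 6 at 7.12 to 8.38 CPM and the other 6 at 15.7 to 20.3 CPM. The means were 13.6 ± 6.18 and 4.18 ± 1.37 CPM (SD, n = 10 each), a fitted log2 difference of 1.71 (SE 0.279).

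Tmem52b, the other gene that stood higher, ran from 4.42 to 12.2 CPM after hCG with a median of 8.61, and from 0.939 to 5.51 CPM after PBS with a median of 3.25. 8 of 10 hCG libraries lay above the highest PBS library, and hCG libraries 2 and 5 overlapped the PBS range. Its means were 8.35 ± 2.43 and 3.48 ± 1.41 CPM and its log2 difference 1.25 (SE 0.234).

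Slc25a48, the mitochondrial carrier, had separate ranges. After hCG it ran from 1.53 to 3.30 CPM with a median of 2.33, and after PBS from 3.87 to 8.38 CPM with a median of 5.50, so every hCG library lay below every PBS library. Of the 14517 genes tested, 0.00689% had ranges that did not overlap, which is this gene alone. The means were 2.46 ± 0.552 and 5.98 ± 1.84 CPM, with a log2 difference of -1.26 (SE 0.185).

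Slc7a8, the amino acid exchanger, ran from 24.95 to 48.7 CPM after hCG with a median of 29.4, and from 38.0 to 79.5 CPM after PBS with a median of 48.8. 9 of 10 hCG libraries lay below the lowest PBS library, and hCG library 9, at 48.7 CPM, lay within the PBS range. The log2 difference was -0.72 (SE 0.132), the smallest of the 5. Phlda1 ran from 1.18 to 2.68 CPM after hCG with a median of 1.71, and from 1.93 to 6.57 CPM after PBS with a median of 4.52. 7 of 10 hCG libraries lay below the lowest PBS library, and PBS libraries 2, 5 and 3, at 1.93 to 2.88 CPM, were the low ones. Its log2 difference was -1.25 (SE 0.233).

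**Figure D1:**
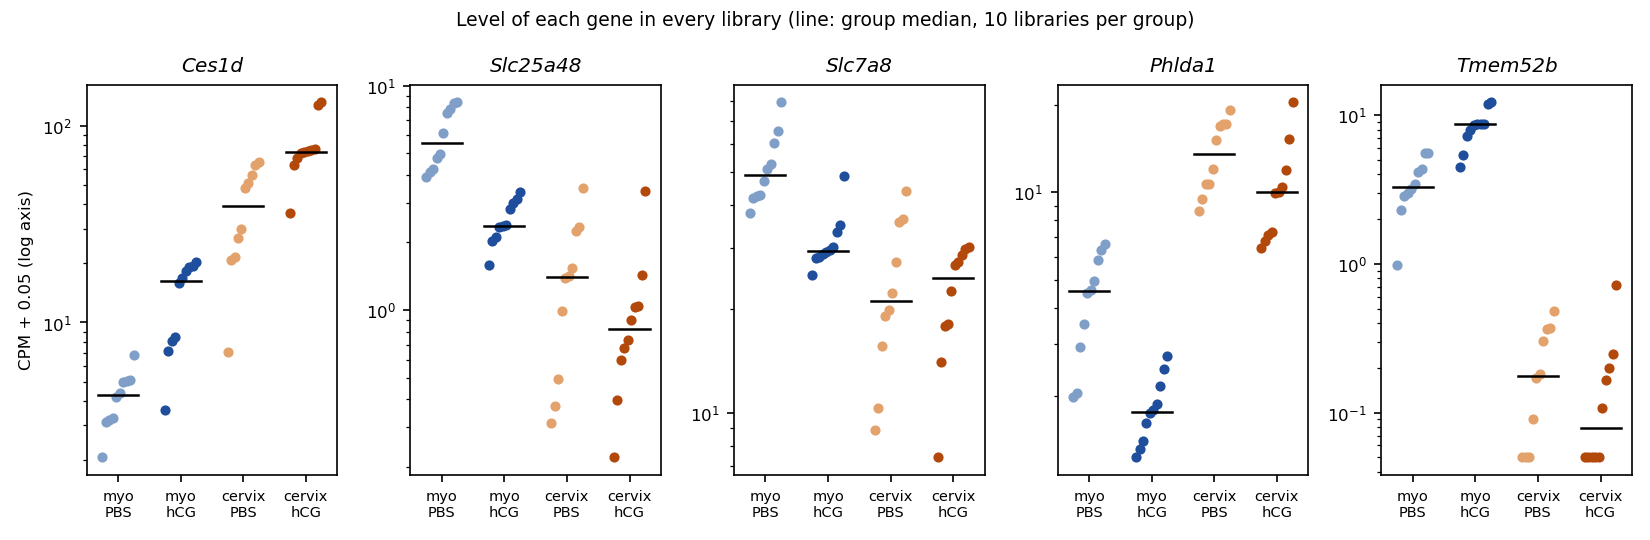
Level of each gene in every library as CPM plus 0.05 on a log axis, by tissue (myo is myometrium) and treatment, 10 libraries per group, with a black line at the group median. Ranges of Slc25a48 are separate between hCG and PBS myometrium, and Tmem52b is at or near 0 in cervix.

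Per kilobase of exon, with the exons of all GENCODE vM21 transcripts of a gene merged, levels can be set roughly side by side between genes. The merged length can exceed that of the principal transcript, as for Slc7a8 with 5005 against 4084 bases. In PBS myometrium Slc7a8 stood at 10.4 CPM per kilobase, and the other 4 lay between 1.11 (Tmem52b) and 1.95 (Phlda1), with Slc25a48 at 1.77 and Ces1d at 1.76, so these last 3 did not differ beyond their spread. In hCG myometrium Slc7a8 stood at 6.31, Ces1d at 5.76 and Tmem52b at 2.66 CPM per kilobase, while Phlda1 stood at 0.806 and Slc25a48 at 0.729. In hCG cervix Ces1d was the highest of the 5, at 33.6 CPM per kilobase.

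The myometrium differences kept their directions without the libraries that carried RNA of other tissues. That is a description and no support, because the remaining libraries took part in choosing the genes. Without the 8 libraries over 1000 CPM of Afp, the log2 differences were 1.45 for Ces1d, 1.08 for Tmem52b, -1.07 for Slc25a48, -0.71 for Slc7a8 and -0.98 for Phlda1. Without hCG libraries 1, 5, 8 and 10, a set chosen after seeing the data, they were 1.54, 1.34, -1.19, -0.72 and -1.08 in the same order. In each of these settings 1 of the 5, Slc25a48 at rank 4, stayed among the 5 smallest p. Of 128 tested genes of the 25 marker lists, 0 passed edgeR's test for hCG in myometrium, with 18 at an unadjusted p under 0.05, and DESeq2 called 2. Over all 14517 genes tested the shares were 0.0138%, 15.5% and 2.65% in the same order. With so few genes passing at all, 0 calls do not show that the cell makeup was alike. Over 34 alternative settings the log2 difference lay between 1.24 and 1.82 for Ces1d, 0.999 and 1.40 for Tmem52b, -1.33 and -1.02 for Slc25a48, -0.84 and -0.59 for Slc7a8 and -1.35 and -0.83 for Phlda1.

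In cervix, which the choice did not use, Ces1d rose after hCG. Its level was 35.8, 73.7 and 131 CPM at the lowest, median and highest of the hCG libraries and 7.04, 39.1 and 65.6 CPM in the PBS libraries. 8 of 10 hCG libraries lay above the highest PBS library, and hCG libraries 5 and 7, at 35.8 and 62.7 CPM, overlapped the PBS range. The means were 79.6 ± 28.6 and 38.9 ± 20.2 CPM (SD, n = 10 each). The gene was 2.08-fold higher (log2 1.06, SE 0.303, edgeR adjusted p = 0.0377).

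Of the 5 genes, 4 passed the filter on low counts in cervix, Tmem52b being too low, and Ces1d was the only one past the threshold, beside 8.91% of the 14932 genes tested (4.74% higher and 4.17% lower). An unadjusted p under 0.05 was reached by 29.2% of genes, and 0.0469% had ranges that did not overlap, none of them among these 5. Phlda1 had a log2 difference of -0.36 (95% interval -0.79 to 0.08, adjusted p = 0.290), Slc25a48 of -0.42 (-1.37 to 0.53, adjusted p = 0.594) and Slc7a8 of -0.09 (-0.65 to 0.46, adjusted p = 0.852). The intervals of Slc25a48 and Phlda1 run from a clear fall to no difference or a rise, so a p that misses the threshold does not show that they did not change. Whether the cervix and myometrium differences themselves differ was not tested, because the myometrium contrast chose the genes. Phlda1 ran from 6.37 to 20.3 CPM after hCG and from 8.59 to 19.1 after PBS, Slc7a8 from 7.37 to 30.1 and from 8.84 to 43.8, and Slc25a48 from 0.171 to 3.35 and from 0.263 to 3.45.

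**Figure D2:**
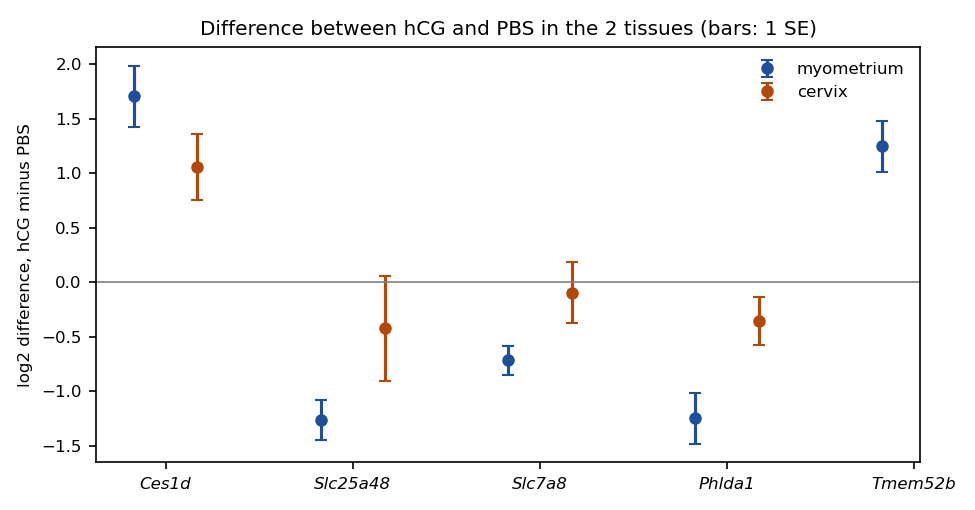
Difference between hCG and PBS on the log2 scale for each gene, in myometrium (blue) and cervix (orange), with bars of 1 SE and a line at 0. Tmem52b has no cervix point because it did not pass the filter there, and the myometrium values chose the genes.

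The cervix call of Ces1d was lost in 18 of 35 alternative settings, with the log2 difference between 0.77 and 1.30 and the adjusted p between 0.00909 and 0.799. Leaving out hCG library 1, 2, 3, 7 or R3, or PBS library 1, 2, 4, 7, 8 or 10, took it past the threshold, the highest adjusted p of these being 0.0762. Cervix libraries differed in depth, and within the 10 deeper ones the difference was 1.30 (adjusted p = 0.0892) and within the 10 shallower ones 0.77 (adjusted p = 0.799). Within the same deeper and shallower libraries Slc25a48 stood at 0.17 and -1.11, Slc7a8 at 0.51 and -0.19 and Phlda1 at -0.13 and -0.67, so the first 2 had opposite signs. In PBS cervix libraries 5 to 8 Lars2 took 3.51% to 17.5% of counts, and without them Ces1d was at 0.92 (adjusted p = 0.0859). Markers of other cell types moved with hCG in cervix, where 20 of 139 tested genes of the 25 marker lists passed edgeR's test. The share over all genes was 8.91%. With the squamous epithelium score as a covariate Ces1d was at 1.05 (adjusted p = 0.438), and the part of the other lists in the result was not tested. hCG cervix library 1 had a skeletal muscle score of 8.91, and libraries 3 and 5 had urothelium scores of 6.54 and 8.31. The PBS cervix maxima of these scores were 4.77 and 3.12. All 5 urothelium genes passed as higher after hCG in cervix. Without hCG libraries 1, 3 and 5 no gene passed in cervix, Ces1d included.

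Fat is a known source of Ces1d, so adipocyte markers were set beside it. The 11 markers, such as the adipokine gene Adipoq and the lipid droplet gene Plin1, summed to 49.7 to 5631 CPM in hCG cervix and 105 to 662 CPM in PBS cervix, and 1 of 11 passed edgeR's test for hCG there, with all 11 at an unadjusted p under 0.05 and 7 called by DESeq2. Of the 14932 genes tested there, 8.91% passed edgeR's test, 29.2% had an unadjusted p under 0.05 and DESeq2 called 2283. The median log2 difference of the list was 2.25 against 0.01 over all genes. hCG cervix libraries 10, 6 and 2, with the lowest adipocyte scores (mean log2 CPM 0.28 to 0.72), held 72.9, 72.2 and 76.2 CPM of Ces1d, and the highest PBS cervix library held 65.6 CPM. At the other end, hCG cervix libraries 3 and 1 had the highest scores (7.76 and 7.36) and the most Ces1d, 131 and 127 CPM. Library 5, next at 6.68, held the least of that group, 35.8 CPM. With the adipocyte score as a covariate, an alternative added after seeing the data, the log2 difference was 1.01 (adjusted p = 0.0468). How much of the Ces1d difference came with adipocyte RNA was not tested, and this fit does not settle it. In myometrium Adipoq was at 0 in 7 of 10 hCG and 8 of 10 PBS libraries and Plin1 at 0 in 9 of 10 of each, and the sum ran from 37.8 to 291 CPM after hCG and 40.6 to 103 after PBS, of which Fabp4, also a gene of endothelium and macrophages, made a part. Within groups of 10 the Pearson r of Ces1d with the adipocyte score was 0.23, 0.19, 0.29 and 0.28 in hCG cervix, PBS cervix, hCG myometrium and PBS myometrium.

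**Figure D3:**
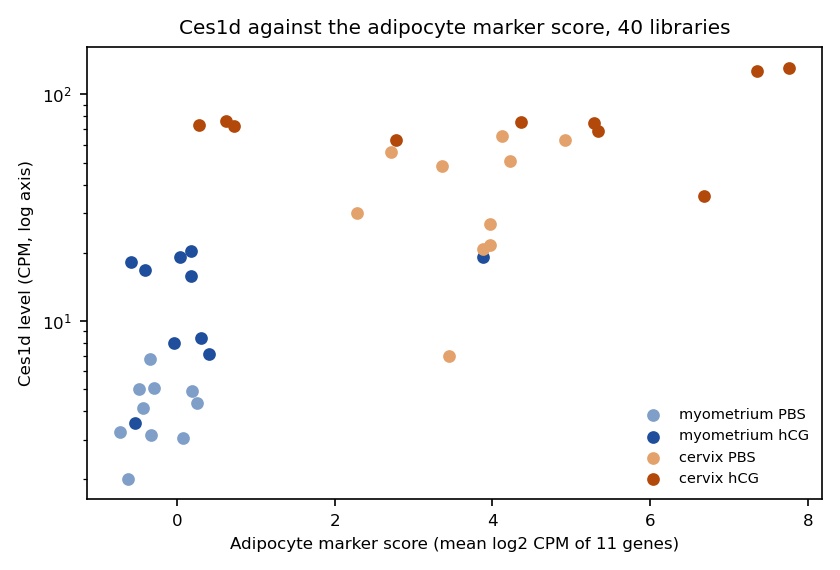
Level of Ces1d (CPM, log axis) against the adipocyte marker score (mean log2 CPM of 11 genes) in all 40 libraries, coloured by tissue and treatment. The 3 hCG cervix libraries at the left, with scores near those of myometrium, hold 72.2 to 76.2 CPM, and 1 hCG myometrium library stands apart with a score of 3.88. At the right, hCG cervix libraries 3, 1 and 5 (scores 7.76, 7.36 and 6.68) hold 131, 127 and 35.8 CPM.

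Over both treatments the 5 genes differed between the tissues. All 5 passed the threshold, beside 61.7% of the 15624 genes tested, with 2 higher and 3 lower in cervix (32.9% and 28.8% of all genes, with 65.1% at an unadjusted p under 0.05). Ces1d was 7.26-fold higher in cervix (log2 2.86, SE 0.225, edgeR adjusted p = 5.16e-14) and Phlda1 4.25-fold higher (log2 2.09, SE 0.163, adjusted p = 4.06e-14). Tmem52b was lower in cervix, with a log2 difference of -5.33 (SE 0.398, adjusted p = 1.06e-14). Tmem52b passed the filter on low counts only through myometrium, where it is high, so its p describes and supports nothing. Slc25a48 was lower too, at -1.70 (SE 0.262, adjusted p = 4.99e-07) and so was Slc7a8, at -0.84 (SE 0.163, adjusted p = 2.61e-05). All 5 kept their direction and call in 50 alternative settings, which for Tmem52b only describes. The myometrium libraries that chose the genes took part in this fit too, so its p-values are not independent of the choice.

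Read across the 4 groups, Ces1d ran from hCG cervix (79.6 CPM) through PBS cervix (38.9) and hCG myometrium (13.6) to PBS myometrium (4.18). Within a treatment the ranges of Ces1d, Phlda1 and Tmem52b did not overlap between tissues, as held for 7.51% of genes among hCG libraries and 14.0% among PBS libraries. For Tmem52b this too only describes, since it passed the filter through myometrium. Those of Slc7a8 overlapped in both treatments. Those of Slc25a48 overlapped only among hCG libraries, in which cervix library 5, at 3.35 CPM, lay above the highest myometrium library. This overlap rests on that library, since the next highest hCG cervix library held 1.38 CPM and the lowest hCG myometrium library 1.53 CPM. Cervix library 5 had a urothelium score of 8.31 and a smooth muscle score of 11.1, each the highest of the cervix libraries. Tmem52b had no count in 5 of 10 hCG and 3 of 10 PBS cervix libraries, and a count of 0 there allows a level of up to 0.12 CPM at the highest depth of the cervix libraries and 0.454 CPM at the lowest (the level of 3 counts, which covers counting error). Its highest cervix value, 0.67 CPM in hCG library 3, was below the lowest myometrium value.

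The closest relatives were measured by the same fits. Cervix calls of these relatives, and of the lists and neighbours below, are those of the main setting. They depend on it, since over 35 alternative settings 0 to 2283 genes passed in cervix. Of the Ces1 cluster, Ces1e, the nearest gene to Ces1d, stood at 4.88 ± 1.76 CPM in hCG and 2.42 ± 1.08 CPM in PBS myometrium, a log2 difference of 0.99 that missed the threshold (edgeR adjusted p = 0.0973), and was higher in cervix by 1.24 (adjusted p = 0.000283). Ces1f, another liver-type carboxylesterase, stood at 45.5 ± 26.5 and 46.7 ± 15.9 CPM in hCG and PBS cervix, did not pass the threshold there (log2 -0.02, adjusted p = 0.971), and had a median of 0 CPM in both myometrium groups. The difference between Ces1d and Ces1f was not tested. Ces1c and Ces1g were too low to test.

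Slc7a5, the close relative of Slc7a8 that also pairs with Slc3a2, fell in cervix after hCG, from 54.1 ± 17.4 to 28.9 ± 10.4 CPM (log2 -0.89, SE 0.230, edgeR adjusted p = 0.0303), and stood at 17.6 ± 3.11 and 18.8 ± 4.31 CPM in hCG and PBS myometrium. Slc3a2, the shared heavy chain, had a log2 difference of -0.27 in cervix (adjusted p = 0.0756) and -0.17 in myometrium (adjusted p = 0.305). Phlda3, a p53-responsive relative of Phlda1, fell in cervix from 46.4 ± 21.9 to 26.8 ± 9.36 CPM (log2 -0.78, SE 0.243, adjusted p = 0.0477) and was at 0.16 in myometrium (adjusted p = 0.685). Slc25a45 and Slc25a47, relatives of Slc25a48, had myometrium differences of 0.18 and -0.23 that missed the threshold (adjusted p = 0.616 and 0.760). Phlda2 and Tmem52 were too low to test.

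Wider lists of related genes were counted next, chosen with earlier results known. Over all genes in myometrium the shares were 0.0138% by edgeR, 15.5% at an unadjusted p under 0.05 and 2.65% by DESeq2. In cervix 29.2% of the 14932 genes had an unadjusted p under 0.05, and DESeq2 called 2283. Of 15 tested carboxylesterases and neutral lipid lipases, 1 passed edgeR's test in myometrium, Ces1d, which was chosen on it, with 4 at an unadjusted p under 0.05 and 4 called by DESeq2. In cervix 3 of 18 rose and 2 fell, and this and the following cervix counts stand beside the 4.74% of all genes that were higher and 4.17% that were lower there. Those that rose besides Ces1d were Lipa, the lysosomal acid lipase (log2 0.85, adjusted p = 0.0332), and Lpl, the lipoprotein lipase (log2 1.03, adjusted p = 0.0384), and those that fell were Ces2f (-1.61) and Ces2g (-0.96). The list's median log2 difference was 0.21 in myometrium and 0.16 in cervix, against 0.01 over all genes in each tissue.

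Of 24 plasma membrane amino acid transporters tested in myometrium 0 passed edgeR's test, Slc7a8 included, with 6 at an unadjusted p under 0.05 and 1 called by DESeq2. The list median was -0.03. In cervix 4 of 25 rose, among them the amino acid carriers Slc38a4 (1.13) and Slc7a2 (0.86), and 2 fell, Slc7a1 (-0.91) and Slc7a5. Of 43 mitochondrial carriers of the SLC25 family, 1 passed edgeR's test in myometrium, Slc25a48, which was chosen on it, with 9 at an unadjusted p under 0.05 and 2 called by DESeq2. In cervix 0 of 44 passed edgeR's test, with 7 at an unadjusted p under 0.05 and 3 called by DESeq2. Of 16 genes of choline handling 0 passed edgeR's test in myometrium (1 at an unadjusted p under 0.05, 0 by DESeq2) and 1 rose in cervix, Chpt1, which makes phosphatidylcholine (log2 0.94, adjusted p = 0.0300).

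Of 27 genes of the PHLDA family and growth factor early response, 0 passed edgeR's test in myometrium, with 6 at an unadjusted p under 0.05, 2 called by DESeq2 and a list median of -0.11. In cervix 2 of 27 fell, Phlda3 and Fosl2, a subunit of the AP-1 transcription factor (-0.69). The early response gene Fosb had a myometrium log2 difference of -2.02 that missed the threshold (adjusted p = 0.101), and was picked out after its value was seen. Of 22 genes of the hCG receptor and cyclic AMP response tested in myometrium 0 passed edgeR's test (5 at an unadjusted p under 0.05, 1 called by DESeq2). In cervix 3 of 23 rose, among them Prkar2b, a regulatory subunit of protein kinase A (log2 1.10), and 1 fell, the phosphodiesterase gene Pde10a (-1.16).

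**Figure D4:**
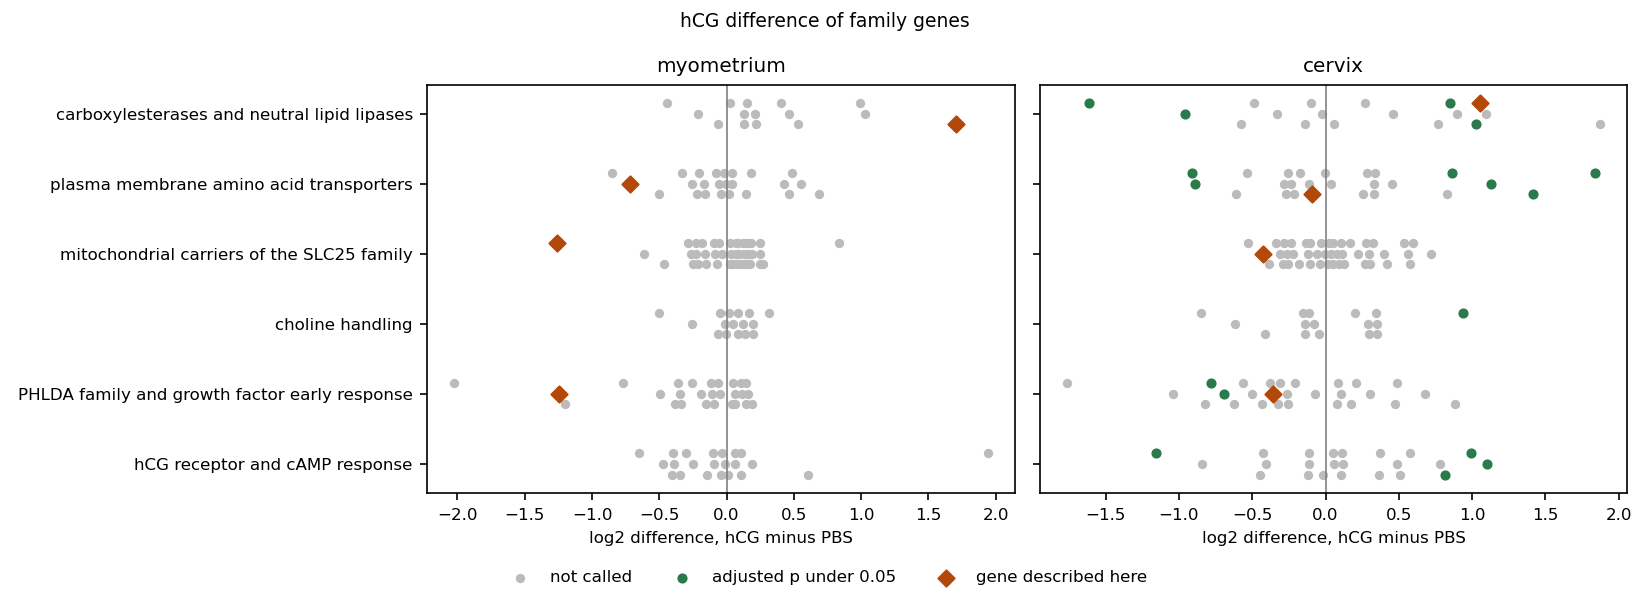
Difference between hCG and PBS on the log2 scale for each tested gene of 6 lists, in myometrium (left) and cervix (right), with genes past the adjusted threshold in green, the genes described here as orange diamonds and the rest in grey. In myometrium edgeR's test was passed by Slc25a48 and Ces1d among these genes, and the place of the diamonds there follows from how they were chosen. Points are spread vertically within a list only to separate them.

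Genes next to each member on the chromosome were also read. Beside Tmem52b, Gabarapl1, an autophagy gene, stood at 313 ± 35.5 CPM in hCG and 225 ± 45.0 CPM in PBS myometrium (log2 0.48, edgeR adjusted p = 0.0918). Clec7a, a receptor for fungal glucans of myeloid cells, had a myometrium difference of 0.46 (adjusted p = 0.300) and rose in cervix by 2.47 (adjusted p = 0.0150). Olr1, the receptor for oxidised lipoprotein, did not pass in either tissue (adjusted p = 0.701 and 0.370). The neighbours of Slc7a8 that could be tested, 1700123O20Rik and Homez, had myometrium differences of 0.15 and -0.02, and the one of Phlda1, Nap1l1, had -0.11.

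Genes whose levels moved with each member were found over the 20 myometrium libraries after removing group means, out of 13628 candidates, with no p. Slc7a8 followed Fam168a (r = 0.87), Prkce (0.84), the progesterone receptor Pgr (0.83), Chd8 (0.83) and Ccdc6 (0.82). In cervix these r were 0.64, 0.48, -0.09, 0.09 and 0.15 in the same order. Phlda1 followed Clcf1 (0.80), Chrna1 (0.78), the matricellular gene Ccn1 (0.76), Setd1b (0.76) and Ppp1r13l (0.75), with cervix r from -0.29 (Clcf1) to 0.64 (Setd1b). Tmem52b followed Acbd6 (0.76), Akr1b10 (0.71), the prostaglandin E receptor Ptger4 (0.70), Tnfsf13b (0.69) and Trim68 (0.67). Slc25a48 followed Fermt1 (0.71), Ceacam1 (0.70), E2f8 (0.69), Txnrd1 (0.69) and Fbxo48 (0.67), the first 2 of them epithelial adhesion genes, with negative r in cervix. Ces1d followed Morn4 (0.71), Abhd4 (0.69), Smoc2 (0.67), Inmt (0.67) and Slc16a9 (0.67), with cervix r from 0.19 (Morn4) to 0.43 (Abhd4). For comparison, 1 in 100 candidates reached an r of 0.465 with Ces1d and 0.709 with Slc7a8, so many genes move with Slc7a8. These libraries share batch, depth and tissue makeup, and the r values are descriptions.

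Likely cell sources were looked for by setting each gene against 25 marker scores, against library depth and against the other members, within each group of 10 libraries. Of 500 relations, none passed Benjamini-Hochberg adjustment by Pearson r or Spearman rho in two-sided permutation tests, the smallest adjusted p being 0.125 and 0.212, while 57 and 43 had an unadjusted p under 0.05. The largest for Phlda1 were with mast cell markers, r = -0.92 (rho = -0.84) in PBS cervix and -0.86 (rho = -0.92) in PBS myometrium, and r = -0.90 and -0.78 without the 2 libraries farthest from the median score. In the hCG groups the same r was 0.00 in cervix and -0.04 in myometrium. In myometrium the r of the 5 genes with the smooth muscle score lay between -0.50 and 0.41, both for Slc25a48 (PBS and hCG). No cell type was assigned to any of the 5 genes from these relations.

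**Figure D5:**
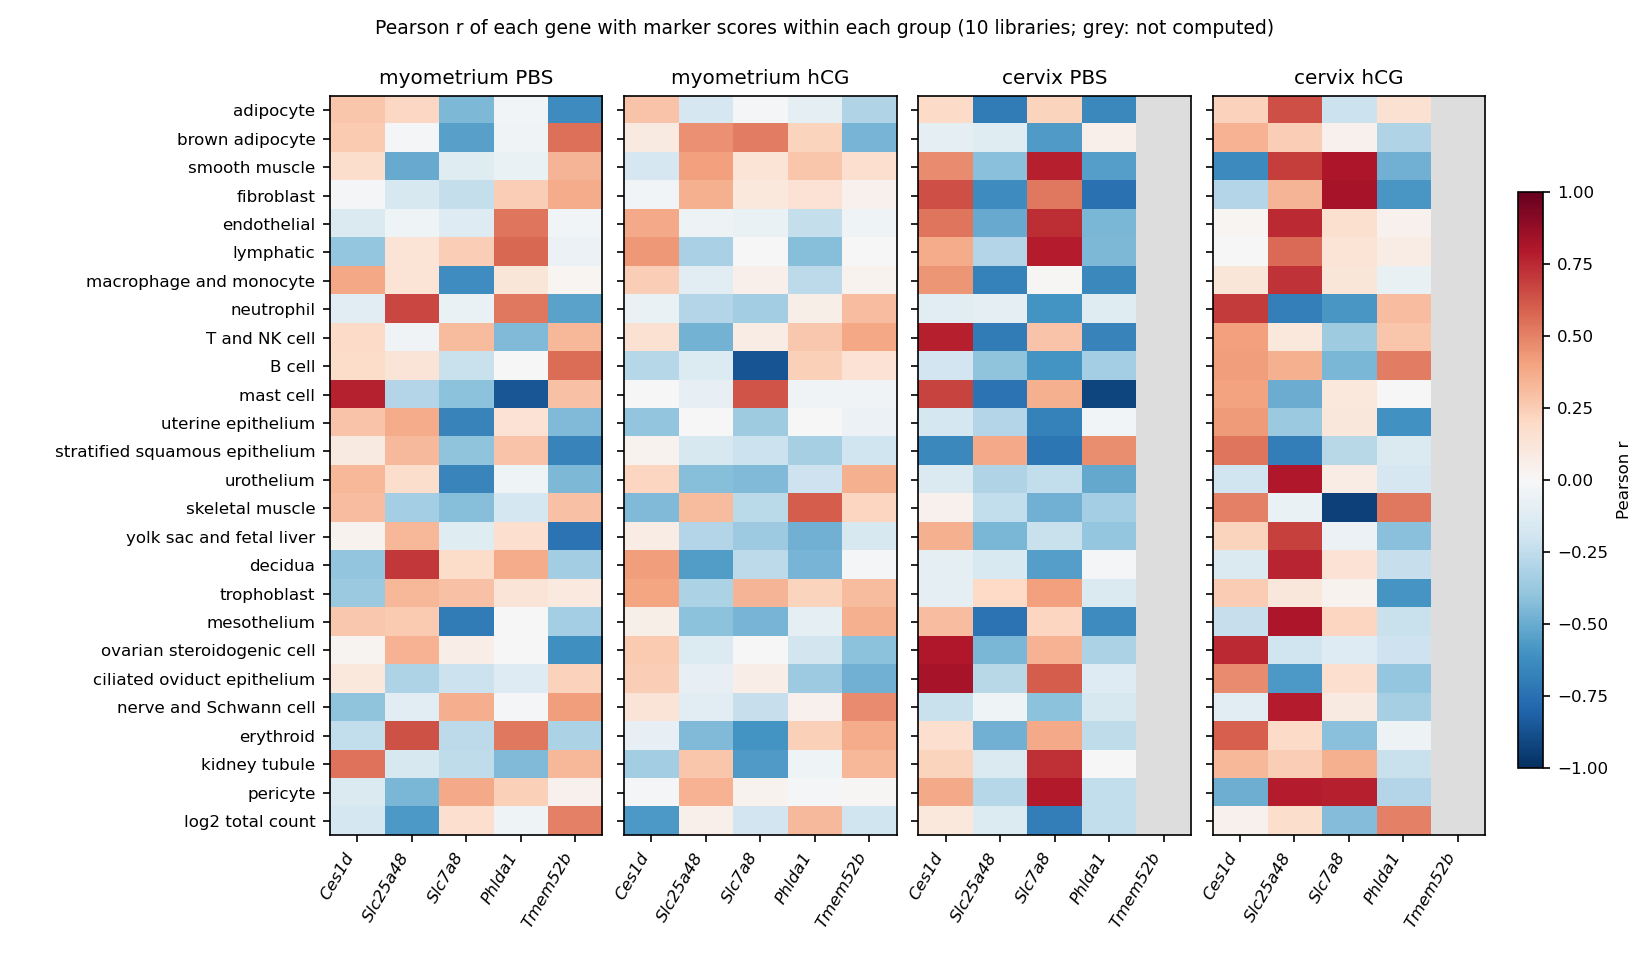
Pearson r of each gene with marker scores and library depth within each group of 10 libraries, from blue (-1) to red (1), with grey where no value was computed. Columns of the same gene differ between groups, as for Phlda1 and mast cell markers.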

How the data were processed

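RNA sequencing counts of 40 libraries (4 groups of 10) were analysed. The deposited table holds whole-number counts, not normalized by the authors, for 23079 gene identifiers. Per the submitters' processing notes, TopHat2 and GRCm38 (mm10) were used. Counting tool, annotation and strand setting: not given in the sources used here, although the kit named in the labels' protocols marks strand. RefSeq (GRCm38.p6) gave symbols for 23008 identifiers, and the 71 others held 0.197% of counts. Replicates were compared pairwise, and the smallest chi-square per gene, 11.0, was far above sampling noise.

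Genes were filtered with filterByExpr, scaled by TMM factors and tested with edgeR 4.0.16 (quasi-likelihood, robust) in R 4.3.3, with Benjamini-Hochberg adjustment over all genes and a threshold of 0.05. An SE is the log2 difference divided by the square root of F, and a 95% interval is normal. The hCG fits used the 20 libraries of 1 tissue. The tissue fit used all 40 libraries and averaged over treatments, each library taken as independent. The fits were tested on simulated data with known changes. Marker scores are mean log2 CPM (prior count 2), and permutation tests used 1e+05 resamples.

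Named were the 5 genes, the ranks 6 to 8, close relatives, up to 4 genes per list and direction past the threshold, 3 neighbours each side and the 5 genes of highest r. Not all are printed, and values outside this rule were chosen after they were seen. The members and all lists were chosen with earlier results of these data known. Of 372 list genes, 8 were not matched. Alternatives were DESeq2 1.42.0, limma 3.58.1 voom with quality weights, other scaling factors and filters, no robust dispersion, the label number as a block, covariates, depth classes and libraries left out. Promoter motifs and shared windows of 50 bases were searched with Python 3.11.15 in RefSeq promoters and GENCODE vM21 transcripts.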

Additional observations from a re-analysis of the deposited data

Results flagged for a closer look

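In 20 sets of 10 libraries (5 genes in 4 groups) the highest or lowest library was compared with the rest by Dixon's ratio on log2 CPM. Chance passes it in about 1 of 20 sets of normally distributed values. That rate need not hold for the myometrium sets, whose values chose the genes. Dixon's ratio was passed in 4. PBS cervix library 7 held 7.04 CPM of Ces1d against a group median of 39.1, and without it the cervix difference was 0.93 on the log2 scale. hCG myometrium library 9 held 48.7 CPM of Slc7a8 against a median of 29.4. hCG cervix library 3 held 0.67 CPM of Tmem52b against a median of 0.0284. In that group 5 of 10 libraries had no count of Tmem52b, so the rate does not apply there. PBS myometrium library 4 held 0.939 CPM of Tmem52b against a median of 3.25, and it was one of the libraries with over 1000 CPM of Afp.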

How the results depend on the processing

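The count of genes with an hCG difference in myometrium, 2 by edgeR, was 384 by DESeq2, 1 without libraries over 1% Lars2, 0 without libraries over 1000 CPM of Afp (1089 at an unadjusted p under 0.05), 4 with the yolk sac score and 1 with the adipocyte score as a covariate, and 0 without hCG libraries 1, 5, 8 and 10 (1860 at an unadjusted p under 0.05), a set chosen after seeing the data. Leaving out each library in turn gave 1 to 137: 137 without PBS library 2, 90 without PBS 3, 31 without PBS R3, 8 without hCG 9, 6 without PBS 5, and 1 without hCG 1, 3, 5, 7 or 8 or PBS 1, 6, 8, 10 or R4. In cervix, 1331 genes by edgeR became 2283 by DESeq2, 242 among the deeper and 0 among the shallower libraries (776 at an unadjusted p under 0.05), 508 with depth as a term, 0 without hCG libraries 1, 3 and 5 (2833 at an unadjusted p under 0.05), 1 without PBS libraries 5 to 8 and 0 with the squamous score (1247 at an unadjusted p under 0.05). Leaving out each cervix library gave 1 to 2065: 1 without PBS 4 or 7, 2 without PBS 8, 8 without hCG 3, 381 without PBS 10, and for hCG libraries 5, 7, 2, R3, 9 and 10 in turn 406, 542, 841, 869, 2005 and 2065. Upper-quartile factors split the cervix calls into 972 higher and 475 lower, against 708 and 623.

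The cervix difference of Slc25a48 turned to 0.17 among the deeper libraries and 0.32 without PBS libraries 5 to 8. That of Slc7a8 turned to 0.17 by voom, 0.51 among the deeper libraries, 0.17 with depth as a term, 0.0202 without hCG libraries 1, 3 and 5 and 0.30 without PBS libraries 5 to 8, and leaving out each library gave -0.19 to 0.0481. The cause was not tested. The member differences in myometrium, on which the genes were chosen, kept their direction in all 34 settings. Those between tissues, from a fit that used the same myometrium libraries, kept their call in all 50.

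Whether equal label numbers pair the libraries cannot be settled from these values. Correlated deviations over 0.1 were found in 3 of 8 pairs in myometrium and 4 of 9 in cervix. Between the tissues they were found in 3 of 9 pairs after hCG and 5 of 9 after PBS (median 0.14, highest 0.57). The library of the same number was the best match in 1, 2, 2 and 3 of these pairs in the same order. With the number as a replicate block, 2 genes passed in myometrium, 1185 in cervix and 9508 between the tissues (9644 without it), and Ces1d in cervix was at 1.14 (adjusted p = 0.0575). The 2 in myometrium were not among the 5 genes described here, of which Slc25a48 ranked 18 and Ces1d 120. Levels below 0.454 CPM in hCG cervix are limited by depth in the shallowest library.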
